A study of Mus musculus with 6 samples.

Results

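Molecular chaperones of the heat shock protein families and their J-domain cochaperones were examined in CD8 T cells sorted from tumours. The genes were every row of the count table whose symbol belongs to the HSP70 and HSP110 (Hspa, Hsph1), HSP90 (Hsp90), small heat shock protein (Hspb), mitochondrial chaperonin (Hspd1, Hspe1) or J protein (Dnaja, Dnajb, Dnajc) families. This gave 69 of the 40879 genes in the table, and 60 of the 69 had enough counts to be tested. The rule for membership is a match of names. By the compartment in which the protein works, 40 genes belong to the cytosol and nucleus, 14 to the endoplasmic reticulum (ER), 9 to mitochondria and 5 to vesicles, cilia and other membranes, and 1, Dnajc4, was left unassigned.

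The cells were tumour-infiltrating CD8 T cells from C57BL/6N mice that carried MC38-hPD-L1 tumours for 12 days. MC38 is a mouse colon carcinoma line, here in a form named for human PD-L1. Tumour tissue had undergone proximity labelling with a deep-red photocatalyst, in which light attaches biotin to nearby cells, and cells were then sorted into a biotin-bearing group (Biotin+, described as neighbouring the tumour) and a group without biotin (Biotin-, described as distal to it), with 3 poly-A RNA libraries in each. Both groups came from labelled tumours of the same strain, and no unlabelled tissue was compared. The age, sex and number of the mice, and what a replicate number stands for, are not given in the labels.

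HSP70 chaperones bind short hydrophobic stretches of unfolded proteins in cycles of ATP hydrolysis. J proteins bring them clients and trigger the hydrolysis, HSP110 proteins and BAG proteins release the nucleotide, and HSP90 takes over clients such as kinases and steroid receptors. Small heat shock proteins hold unfolded proteins without using ATP, and the HSP60 and HSP10 chaperonin (Hspd1 and Hspe1) folds proteins in the mitochondrial matrix. Some of these genes are transcribed at all times, and others are switched on by heat shock factor 1 during protein stress such as raised temperature.

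Total counts were 16423106 to 19640693 per library, and fewer genes were detected per Biotin+ library (15780 to 16213) than per Biotin- library (18142 to 18477). Levels are library-size-scaled counts after trimmed mean scaling (CPM), and the test was edgeR's quasi-likelihood F test with Benjamini-Hochberg adjustment over all 13360 genes tested and a threshold of 0.05. The 15 CD8 T identity genes, such as Cd8a and Cd3e, made up 0.839% to 0.892% of counts in Biotin+ and 0.496% to 0.654% in Biotin-, and 5 of the 15 passed as higher in Biotin+. Of 17 fibroblast and endothelial markers 12 were tested, 7 fell, and the summed list held 0.0128% to 0.0340% of Biotin+ counts and 0.108% to 0.156% of Biotin- counts. Within this list Fap alone had no count in any Biotin+ library. The 12 myeloid markers summed to 0.0449% to 0.133% in Biotin+ and 0.108% to 0.413% in Biotin-, with none passing and none at 0 in all Biotin+ libraries. In a fit with the replicate number as a block, 12 CD8 T identity genes were higher and 4 myeloid markers (Lyz2, Adgre1, Itgam and Mrc1) lower. Of 10 epithelial and tumour markers, Krt8, Krt19, Krt20, Cldn4 and Tspan8 had no count in any Biotin+ library, and the list summed to 0.00229% to 0.0135% there and 0.00191% to 0.00631% in Biotin-.

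Most chaperone genes did not pass the test between tumour-neighbouring and tumour-distal cells. None of the 60 tested genes passed as higher in Biotin+, 2 fell (Hspb8 and Hspa12b), and 58 did not pass. Over all genes tested, 8.26% passed, 1.53% as higher and 6.72% as lower. The median log2 fold change of the chaperone genes, Biotin+ minus Biotin-, was 0.11 beside 0.06 for all genes, with 38 values above 0 and 22 below, and it ranged from -3.05 to 0.89. Same-numbered libraries of the 2 groups deviated together from their group means, and a fit with the replicate number as a block called 5 chaperone genes higher (Dnajc9, Hspa1a, Dnaja1, Dnajb11 and Dnajc19) and 6 lower (Hspb8, Hspa12b, Dnajb4, Hspa9, Dnajc22 and Dnajc27), where 17.6% of all genes passed, 5.6% as higher and 12% as lower. The members' counts lie close to those shares. In simulated counts of the same depth, every gene was given the common spread, with no effect of the replicate number, and only well-counted genes were changed. The test without the block recovered 16 of 100 genes changed 2-fold and 95 of 100 changed 4-fold. At that spread a 2-fold change was often missed. Single chaperone genes differ in spread and level, so these rates need not hold for each of them.

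**Figure D1:**
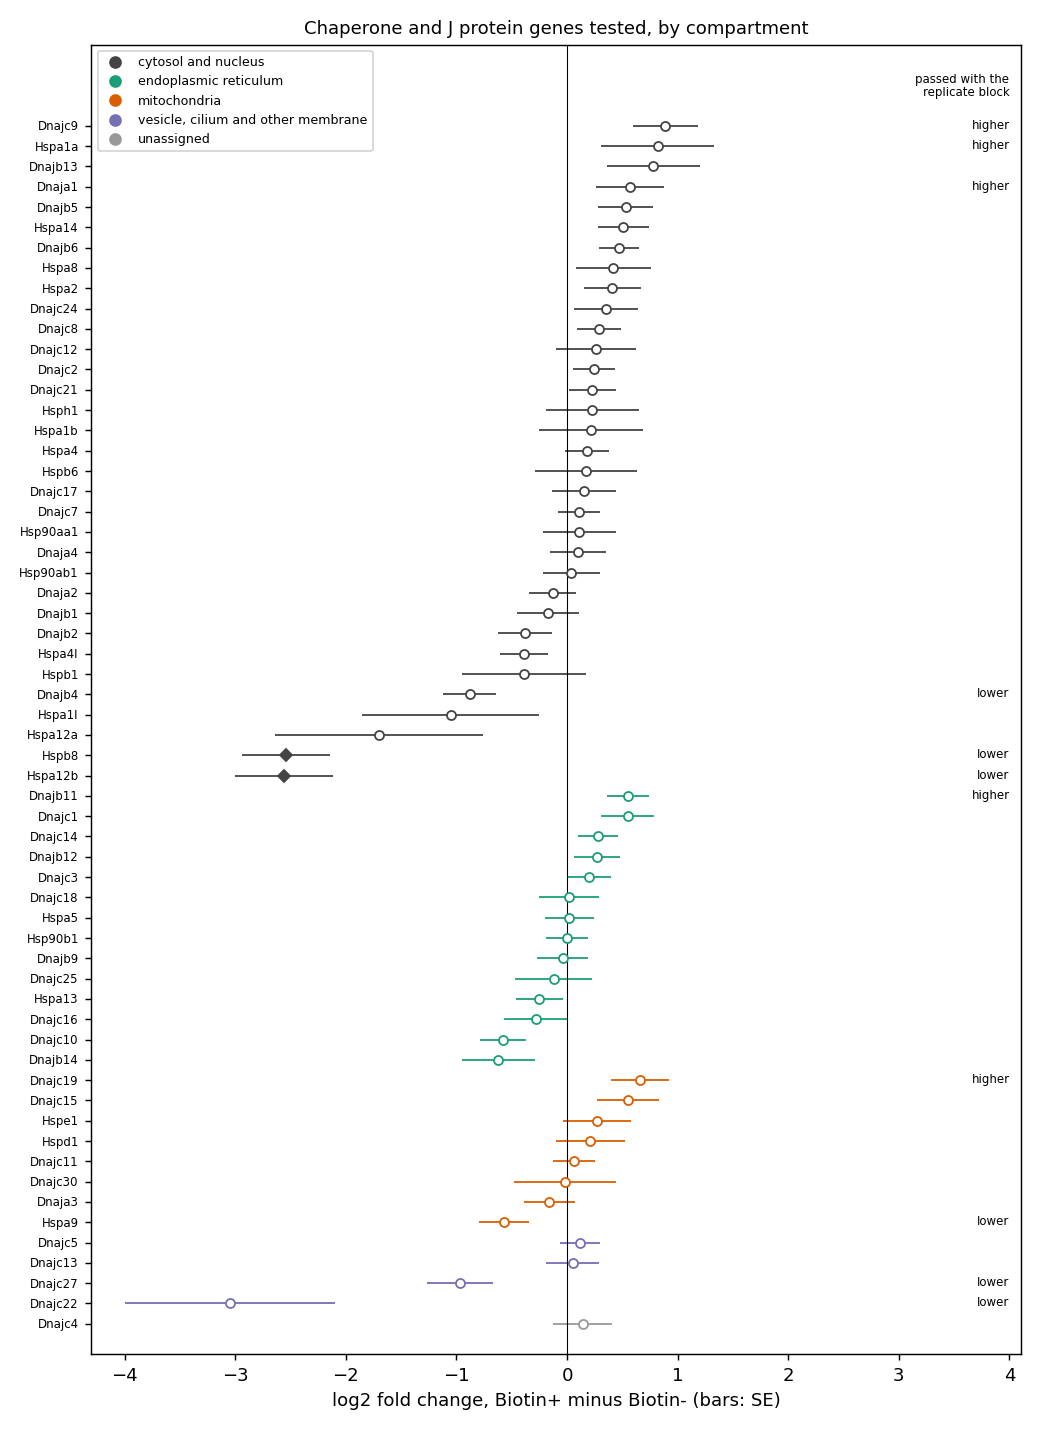
Log2 fold change (Biotin+ minus Biotin-, horizontal axis) with its standard error for the 60 chaperone and J protein genes tested, ordered within compartments marked by colour; filled diamonds passed the test and words at the right give the direction of genes that passed with the replicate block. Hspb8 and Hspa12b are the filled diamonds, and the other 58 are open circles.

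The number of genes called lower depended on how libraries were scaled. Scaling each library to its 15 CD8 T identity genes in place of the trimmed mean lowered the median of all genes by 0.74 on the log2 scale, to -0.67, and moved the chaperone median to -0.62. Under that scaling 20 of the 60 chaperone genes passed as lower and none as higher, beside 27.9% and 0.202% of all genes. With the replicate block added, 34 passed as lower and none as higher, beside 53.2% and 0.749% of all genes, so that these counts too lie near the background. Directions are therefore given relative to the bulk of genes in each library. A lower level in RNA from many cells can mean fewer cells that express the gene or less RNA per cell, and these cannot be told apart here.

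Hspb8 and Hspa12b were the chaperone genes that passed the main test. Hspb8 encodes HSP22, a small heat shock protein that works in a complex with the cochaperone Bag3 to hand damaged proteins to autophagy. Its level was 11.1, 4.81 and 11.9 CPM in Biotin+ replicates 1, 2 and 3, and 48.4, 33.1 and 80.7 CPM in Biotin- replicates 1, 2 and 3. Every Biotin- library lay well above every Biotin+ library, and the groups did not overlap. The mean was 5.82-fold lower in Biotin+ (9.26 ± 3.87 against 54.0 ± 24.3 CPM, SD, n = 3 each; log2 fold change -2.54 ± 0.40, SE; adjusted p = 0.007695). This call held under every scaling, filter, tool and left-out library tried, with log2 fold changes of -3.31 to -2.14.

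Hspa12b encodes an atypical HSP70 with a divergent ATPase domain, best known from endothelial cells. It had 1.13, 1.13 and 1.88 CPM in the Biotin+ libraries and 7.01, 5.59 and 11.9 CPM in the Biotin- libraries, in the order of their numbers. It was thus a rare transcript in both groups, with no overlap between them. The log2 fold change was -2.56 ± 0.44 (SE, n = 3 each; adjusted p = 0.008833), and without Biotin- replicate 3 it was -2.19 with an adjusted p of 0.0561. Its relative Hspa12a lay at 0 to 1.15 CPM in Biotin+ and 1.32 to 2.22 CPM in Biotin- and did not pass (log2 fold change -1.70 ± 0.94, SE; adjusted p = 0.324). All 12 tested fibroblast and endothelial markers had values below 0, as Hspb8 and Hspa12b did, with a median log2 fold change of -2.42. The 7 that passed as lower were Col1a1, Col1a2, Col3a1, Dcn, Pdgfra, Sparc and Postn. The endothelial markers Pecam1 (-0.81, adjusted p = 0.172) and Kdr (-1.65, adjusted p = 0.374) did not pass. Cdh5, Cldn5 and Vwf were too low to test. With the replicate block Pecam1 passed as lower (adjusted p = 0.0287). The part of these markers in the result for Hspb8 and Hspa12b was not tested.

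Bag3, the partner of Hspb8 and of HSP70, fell with it. Bag3 had 26.8, 26.1 and 34.5 CPM in Biotin+ and 54.9, 56.7 and 79.6 CPM in Biotin-. The ranges did not overlap, and Biotin- replicate 3 was the highest library for Bag3 as it was for Hspb8. The log2 fold change was -1.13 ± 0.23 (SE, n = 3 each; adjusted p = 0.01596), but the call was lost on leaving out Biotin+ replicate 2 (adjusted p = 0.0555) or Biotin- replicate 3 (0.0843). Bag3 was the only one of 34 tested partner cochaperones to pass, and the list had a median log2 fold change of 0.20. Bag2 (log2 fold change -0.69 ± 0.26), Bag1 (0.45 ± 0.19) and the membrane-anchored immunophilin Fkbp8 (0.76 ± 0.23, all SE) did not pass. Fkbp8 passed as higher with the replicate block (adjusted p = 0.0174), where it had 288, 486 and 352 CPM in Biotin+ and 226, 199 and 242 CPM in Biotin-.

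Immediate early genes, which are induced within minutes of stimulation or tissue handling, included some that fell as Hspb8 and Bag3 did. Of 20 such genes 6 fell (Fosb, Jun, Egr1, Egr2, Ier3 and Atf3) and 14 did not pass, 4 of the 20 with values above 0. Without Biotin- replicate 3, 2 of the 20 were called, and Jun (adjusted p = 0.0615) and Egr2 (0.0920) were not. The list summed to 0.777% to 0.956% of Biotin+ counts and 1.10% to 1.23% of Biotin- counts. Jun, for example, had 238, 264 and 307 CPM in Biotin+ and 495, 582 and 693 CPM in Biotin-. The summed fibroblast and endothelial list given above was also lower in Biotin+, and its part in these values was not tested. The heat-inducible HSP70 genes did not pass in either direction, with log2 fold changes of 0.82 ± 0.51 for Hspa1a and 0.22 ± 0.47 for Hspa1b (SE).

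**Figure D2:**
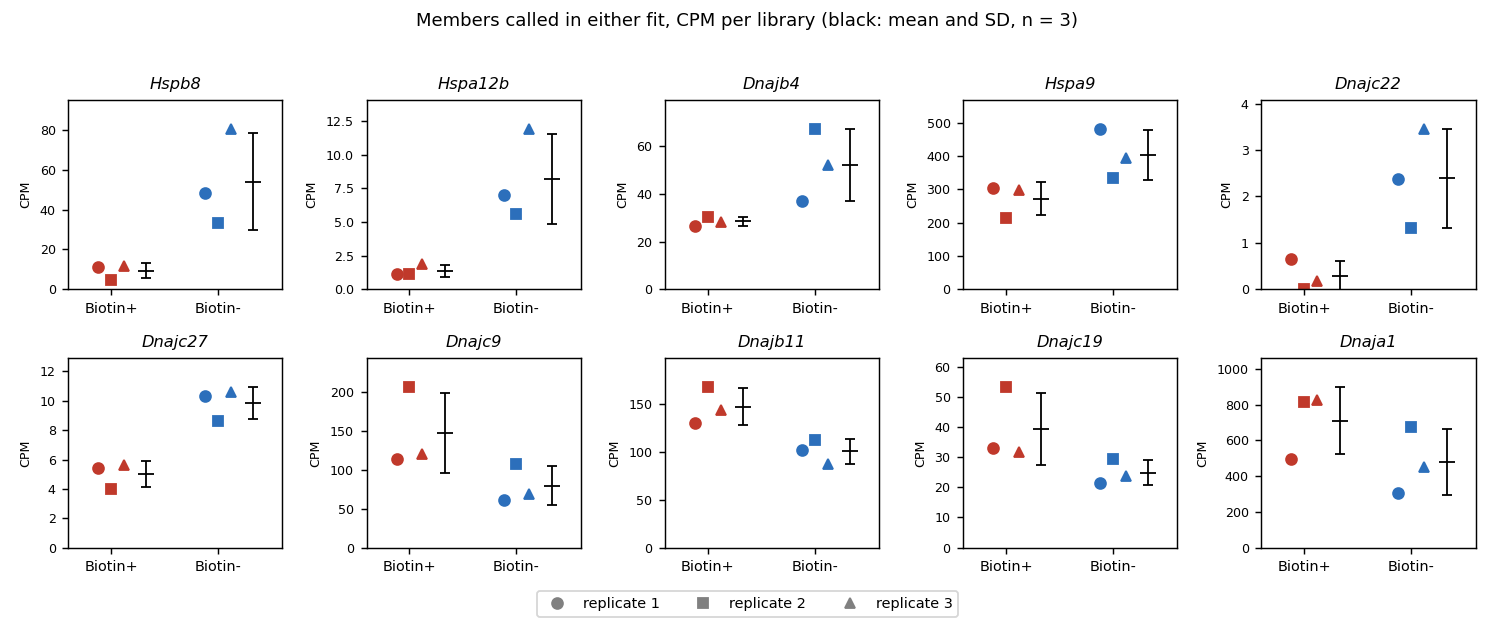
CPM (vertical axes, from 0) in each library for 10 chaperone genes that passed with or without the replicate block; red marks are Biotin+, blue marks Biotin-, marker shape gives the replicate number, and black bars are the mean and SD of 3 libraries. Hspb8 lies at 4.81 to 11.9 CPM in Biotin+ and 33.1 to 80.7 CPM in Biotin-, whereas Dnaja1 overlaps between groups and differs in each same-numbered pair.

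Cytosolic HSP90 and HSP70 genes were the most abundant of the chaperone genes. Per kilobase of exon, the highest mean levels in Biotin+ were those of Hsp90ab1, the constitutive HSP90, at 1453 CPM per kb and of Hspa8, the constitutive HSP70 (HSC70), at 1269 CPM per kb. Hspa1b (308), Hsp90aa1 (288), Hspe1 (221), Hspd1 (220), Hspa5 (202) and Hspa1a (181 CPM per kb) followed. In Biotin- Hsp90ab1 (1411 CPM per kb) and Hspa8 (951 CPM per kb) also led, and Hspa1a (102) lay below Dnajb1 (120) and Hsp90b1 (110 CPM per kb). Together the 69 genes took 1.33% to 1.97% of all counts in Biotin+ and 1.39% to 2.10% in Biotin-.

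Hspa8 had 3589, 7844 and 4940 CPM in Biotin+ replicates 1, 2 and 3 and 3060, 5726 and 3483 CPM in the Biotin- replicates. In both groups replicate 2 was the highest and replicate 1 the lowest, and the groups overlapped. The log2 fold change was 0.42 ± 0.34 (SE, n = 3 each; adjusted p = 0.517). Hsp90ab1, at 3208, 5020 and 4849 CPM against 3468, 5031 and 4198 CPM, had a log2 fold change of 0.04 ± 0.26 (SE). Hsp90aa1, the inducible HSP90, followed the same order with 715, 1426 and 1249 CPM in Biotin+ and 669, 1402 and 1069 CPM in Biotin- (log2 fold change 0.11 ± 0.33, SE). For these 3 genes replicate 1 was thus the lowest library of each group, and the groups overlapped.

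The stress-inducible HSP70 genes Hspa1a and Hspa1b lie side by side and encode nearly the same protein. Hspa1a had 217, 859 and 535 CPM in Biotin+ and 200, 526 and 185 CPM in Biotin-. Hspa1b had 309, 1100 and 1176 CPM in Biotin+ and 389, 905 and 920 CPM in Biotin-. Replicate 1 of both groups was low for both genes, while Biotin- replicate 3 was low for Hspa1a and high for Hspa1b. Hspa1a did not pass (log2 fold change 0.82 ± 0.51, SE, n = 3 each; adjusted p = 0.382), but it passed with the replicate block (0.78 ± 0.23; adjusted p = 0.0234). That call was lost without the pair numbered 2 (0.76 ± 0.34, adjusted p = 0.186) or 3 (0.41 ± 0.28, adjusted p = 0.475). Of all windows of 75 bases in the transcripts of Hspa1a, 52.7% also occur in Hspa1b, so that the split of reads between them is uncertain. Their sum was 526, 1959 and 1711 CPM in Biotin+ and 589, 1431 and 1106 CPM in Biotin-, with a log2 fold change of 0.42 ± 0.45 (SE; adjusted p = 0.632; 0.298 with the replicate block).

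Hsph1 encodes HSP105, a stress-inducible nucleotide exchange factor of HSP70. It had 276, 572 and 697 CPM in Biotin+ and 203, 637 and 476 CPM in Biotin-, again with replicate 1 lowest in both groups (log2 fold change 0.23 ± 0.42, SE; adjusted p = 0.795). Its constitutive relatives Hspa4 (log2 fold change 0.18 ± 0.20) and Hspa4l (-0.39 ± 0.22, both SE) did not pass. Hspa14, which works at the ribosome with the J protein Dnajc2, had 61.8 to 92.2 CPM in Biotin+ and 45.2 to 64.4 CPM in Biotin- and did not pass (0.51 ± 0.23), nor did Dnajc2 (0.24 ± 0.19, both SE). The testis-enriched HSP70 genes Hspa2 (0.41 ± 0.26) and Hspa1l (-1.05 ± 0.80, both SE) did not pass either, Hspa1l at 0.270 to 2.16 CPM in the 6 libraries.

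Among small heat shock proteins other than Hspb8, Hspb1 (HSP25) and Hspb6 (HSP20) were rare. Hspb1 had 3.72, 10.3 and 7.15 CPM in Biotin+ and 7.35, 17.0 and 3.30 CPM in Biotin-, with full overlap (log2 fold change -0.39 ± 0.56, SE). Hspb6 lay between 3.07 and 8.25 CPM over the 6 libraries (0.17 ± 0.46, SE). Hspb2, Hspb3, Hspb7 and Hspb9 were too low to test. The other genes not tested were Dnajb3, Dnajb7, Dnajb8, Dnajc6 and Dnajc28, the last with the highest sum, 31 counts over the 6 libraries. Dnajb8 and Hspb3 had no count in any library, which allows up to 0.146 to 0.187 CPM in each, an upper limit that covers counting error only.

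Cytosolic J proteins split in both directions. Dnajb4, a partner of HSP70 in stressed cells, had 26.7, 30.3 and 28.4 CPM in Biotin+ and 37.2, 67.4 and 52.1 CPM in Biotin-. All Biotin- libraries were higher, and the gene did not pass the main test (log2 fold change -0.88 ± 0.24, SE, n = 3 each; adjusted p = 0.05115). It passed with the replicate block (-0.84 ± 0.21, adjusted p = 0.0112) but not in the blocked fit without the pair numbered 3 (-0.82 ± 0.34, adjusted p = 0.125). Blocked fits without the pair numbered 1 or 3 gave larger SEs for most named genes. A call lost there need not mean that the gene depended on that pair. Dnajb4 also passed unblocked under each other scaling and filter tried, with DESeq2 and without Biotin- replicate 1 (adjusted p of 0.00484 to 0.0478), but not with voom or on leaving out any other library. Among these settings, scaling to CD8 T identity genes called 27.9% of all genes lower.

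Dnajc9, a J protein that chaperones histones H3 and H4 during their supply to replicating chromatin, had the largest positive log2 fold change of the tested chaperone genes. It had 114, 206 and 120 CPM in Biotin+ and 61.1, 108 and 68.7 CPM in Biotin-. Each Biotin+ library was above every Biotin- library, and replicate 2 was the highest in both groups. The log2 fold change of 0.89 ± 0.29 (SE, n = 3 each) did not pass (adjusted p = 0.0931). With DESeq2 and without a filter on low counts Dnajc9 passed, and with the replicate block as well (0.88 ± 0.18; adjusted p = 0.00259), and it was called higher in each of the 3 blocked fits that left out a pair.

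Dnaja1, the main class A cochaperone of HSP70, had 493, 813 and 823 CPM in Biotin+ and 307, 674 and 453 CPM in Biotin-. The groups overlapped, yet Biotin+ was the higher member of each same-numbered pair, and the gene passed only with the replicate block (log2 fold change 0.60 ± 0.18, SE; adjusted p = 0.0264, against 0.316 without the block). This call was lost without the pair numbered 1 (0.56 ± 0.29) or 3 (0.47 ± 0.28, both SE). The classical HSP40 gene Dnajb1 pointed the other way without passing, with 245, 458 and 322 CPM in Biotin+ and 290, 494 and 367 CPM in Biotin- (-0.17 ± 0.28, SE; adjusted p = 0.775). Dnajb6, which holds back protein aggregation, lay at 256 to 272 CPM in Biotin+ and 174 to 215 CPM in Biotin- (0.47 ± 0.18, SE), with an adjusted p of 0.164, or 0.0796 with the block. Dnaja2 (-0.13 ± 0.21) and Dnajc7 (0.11 ± 0.19, both SE), further cochaperones of HSP70, did not pass.

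ER chaperones were close to level between the groups. Hspa5, the ER HSP70 known as BiP, had 870, 917 and 773 CPM in Biotin+ and 838, 996 and 693 CPM in Biotin-, and its log2 fold change was 0.02 ± 0.22 (SE, n = 3 each; adjusted p = 0.970). Hsp90b1, the ER HSP90 known as GRP94, lay at 414 to 468 CPM in Biotin+ and 430 to 465 CPM in Biotin- (log2 fold change near 0, SE 0.19). None of the 14 ER genes passed, and their median was 0.01. Scaled to the CD8 T identity genes, however, Hspa5 turned to -0.70 (adjusted p = 0.0156) while all genes moved by -0.74.

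J proteins of the ER spread to both sides of BiP. Dnajb11 (ERdj3), which carries unfolded proteins to BiP, had 130, 168 and 144 CPM in Biotin+ and 102, 113 and 87.3 CPM in Biotin-, with no overlap. It passed only with the block (log2 fold change 0.55 ± 0.18, SE; adjusted p = 0.0496, against 0.119 without it), and its value was -0.18 when libraries were scaled to CD8 T identity genes. This call was lost in the blocked fit without the pair numbered 1 (0.65 ± 0.30, adjusted p = 0.174) or 3 (0.46 ± 0.31, adjusted p = 0.461). The SEs there were larger than with all pairs. Sdf2l1, whose protein binds Dnajb11, had 58.0, 113 and 58.9 CPM in Biotin+ and 35.2, 43.3 and 37.2 CPM in Biotin- and passed with the block (adjusted p = 0.00542, against 0.0526 without it). Sdf2l1 also passed unblocked without a filter on low counts, with DESeq2 and with voom, and on leaving out Biotin+ replicate 1 or 3. Dnajc10 (ERdj5), a disulfide reductase, lay at 22.4 to 31.6 CPM in Biotin+ and 38.5 to 43.9 CPM in Biotin- without passing (-0.58 ± 0.21, SE; adjusted p = 0.126).

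The remaining named ER genes did not pass, with or without the block. They were Dnajc1 (log2 fold change 0.55 ± 0.24), a ribosome-associated J protein of the ER membrane, Dnajc3 (0.20 ± 0.20), which lends clients to BiP, Dnajb9 (-0.04 ± 0.23), which promotes degradation of misfolded ER proteins, and Hspa13 (-0.25 ± 0.21, all SE), a microsomal HSP70. Of 16 ER folding and unfolded protein response genes none passed, and with the block Sdf2l1 alone did. The list's median was 0.12. The sensors Ern1 (0.56 ± 0.25) and Eif2ak3 (0.76 ± 0.37) and the transcription factor Xbp1 (0.29 ± 0.18, all SE) did not pass.

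Mitochondrial chaperones included one that was lower and one that was higher with the block. Hspa9, the matrix HSP70 known as mortalin, drives protein import and folding. It had 306, 215 and 297 CPM in Biotin+ and 483, 333 and 395 CPM in Biotin-. Replicate 2 was lowest in both groups, where Hspa8 was highest, and the groups did not overlap. Hspa9 did not pass (log2 fold change -0.57 ± 0.23, SE, n = 3 each, adjusted p = 0.166) but passed with the block (-0.57 ± 0.17, adjusted p = 0.0285). That call was lost without the pair numbered 1 (-0.52 ± 0.29) or 3 (-0.65 ± 0.28, both SE). Hspa9 also passed unblocked under scaling to CD8 T identity genes (adjusted p = 0.0110), where 27.9% of all genes passed as lower.

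Dnajc19, the J protein of the import motor that stimulates Hspa9, had 33.1, 53.2 and 31.6 CPM in Biotin+ and 21.3, 29.3 and 23.8 CPM in Biotin-. It passed only with the block (0.64 ± 0.21, SE, adjusted p = 0.0463, against 0.154), and its value was -0.09 under scaling to CD8 T identity genes. The call was lost without any 1 of the 3 pairs. Without the pairs numbered 1, 2 and 3 the value was 0.63 ± 0.34, 0.46 ± 0.17 and 0.75 ± 0.34 (SE). Dnajc15, known as MCJ and as an inhibitor of respiratory complex I in CD8 T cells, lay at 76.1 to 136 CPM in Biotin+ and 51.3 to 87.4 CPM in Biotin- (0.55 ± 0.28, SE; adjusted p = 0.283, or 0.0632 with the block). Dnaja3 did not pass (-0.16 ± 0.23, SE). The chaperonin pair did not separate the groups. Hspd1 had 377, 615 and 753 CPM in Biotin+ and 339, 645 and 522 CPM in Biotin-, and Hspe1 had 199, 447 and 333 CPM against 187, 330 and 294 CPM, with replicate 1 lowest throughout (log2 fold changes 0.21 ± 0.31 and 0.27 ± 0.31, SE).

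Of the J proteins at vesicles and other membranes, Dnajc27, which joins a J domain to a small GTPase, had 5.45, 4.00 and 5.63 CPM in Biotin+ and 10.4, 8.61 and 10.6 CPM in Biotin-. It passed with the block (log2 fold change -0.98 ± 0.29, SE, adjusted p = 0.0260, against 0.0810 without it). This call was lost without the pair numbered 1 (-1.01 ± 0.44) or 3 (-1.02 ± 0.42, both SE). Dnajc27 also passed unblocked with DESeq2 (adjusted p = 0.0240) and under scaling to CD8 T identity genes (0.0132), a scaling that called 27.9% of all genes lower. Dnajc22, a J protein with several membrane spans, had 12, 0 and 3 counts in Biotin+ and 49, 24 and 64 counts in Biotin-. Its log2 fold change of -3.05 ± 0.95 (SE) was the lowest of all tested chaperone genes and its SE the largest. Dnajc22 passed with the block (adjusted p = 0.0123, against 0.0804 without it), though not in the blocked fit without the pair numbered 3. It also passed unblocked without a filter on low counts (adjusted p = 0.00365), with DESeq2 (0.0105), under scaling to CD8 T identity genes (0.0265) and without Biotin+ replicate 1 (0.0379). Dnajc5, the cysteine string protein of secretory vesicles, was level at 125 to 146 CPM in Biotin+ and 125 to 133 CPM in Biotin- (0.12 ± 0.18, SE), and Dnajc4 had a log2 fold change of 0.14 ± 0.27 (SE).

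Fold changes aside, all Biotin+ libraries lay above all Biotin- libraries for 6 chaperone genes and below them for 9, where 13.4% and 15.9% of all genes tested showed this (29.2% in either direction). The 6 were Dnajc9, Dnajb5, Dnajb6, Dnajc14, Dnajb11 and Dnajc19. The 9 were Hspb8, Hspa12a, Hspa12b, Hspa9, Dnajb4, Dnajb14, Dnajc10, Dnajc22 and Dnajc27. As a count, this is again near the background.

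A further pattern lay between replicate numbers. Summed over all 69 genes, the level was 13580, 23260 and 19570 CPM in Biotin+ replicates 1, 2 and 3, and 12880, 20590 and 15510 CPM in the Biotin- replicates. Replicate 1 was the lowest and replicate 2 the highest in both groups. Most of this came from the cytosolic and nuclear genes, at 10430, 19690 and 16010 CPM against 9780, 16920 and 12410 CPM. Large parts of these sums were single genes. Hspa8 had 3589, 7844 and 4940 CPM against 3060, 5726 and 3483 CPM. Hsp90ab1 had 3208, 5020 and 4849 CPM against 3468, 5031 and 4198 CPM. The ER genes summed to 1774 to 1871 CPM in Biotin+ and 1546 to 1977 CPM in Biotin-, without that order.

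A test of the replicate number in the blocked fit, added after the values were seen, called 7 of the 60 chaperone genes where 2.69% of all genes passed. These were Hspa1b (2.998-fold between the highest and lowest number; adjusted p = 0.00341), Hsph1 (2.54-fold; 0.00768), Hspa1a (3.22-fold; 0.00833), Hspa8 (2.02-fold; 0.0285), Hsp90aa1 (2.04-fold; 0.0302), Hspe1 (1.99-fold; 0.0439) and Hspb8 (2.37-fold; 0.0455). In the first 6 of these the mean over both groups was lowest in replicate 1. Hspb8 differed from them in being lowest in replicate 2 and highest in replicate 3. Hspd1 (1.76-fold; adjusted p = 0.0695), Dnajb1 (1.78-fold; 0.0775) and Dnaja1 (1.90-fold; 0.0626) had replicate 1 lowest as well without passing, whereas Hspa5 (1.30-fold; 0.532) and Hsp90b1 (1.02-fold; 0.995) did not pass.

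**Figure D3:**
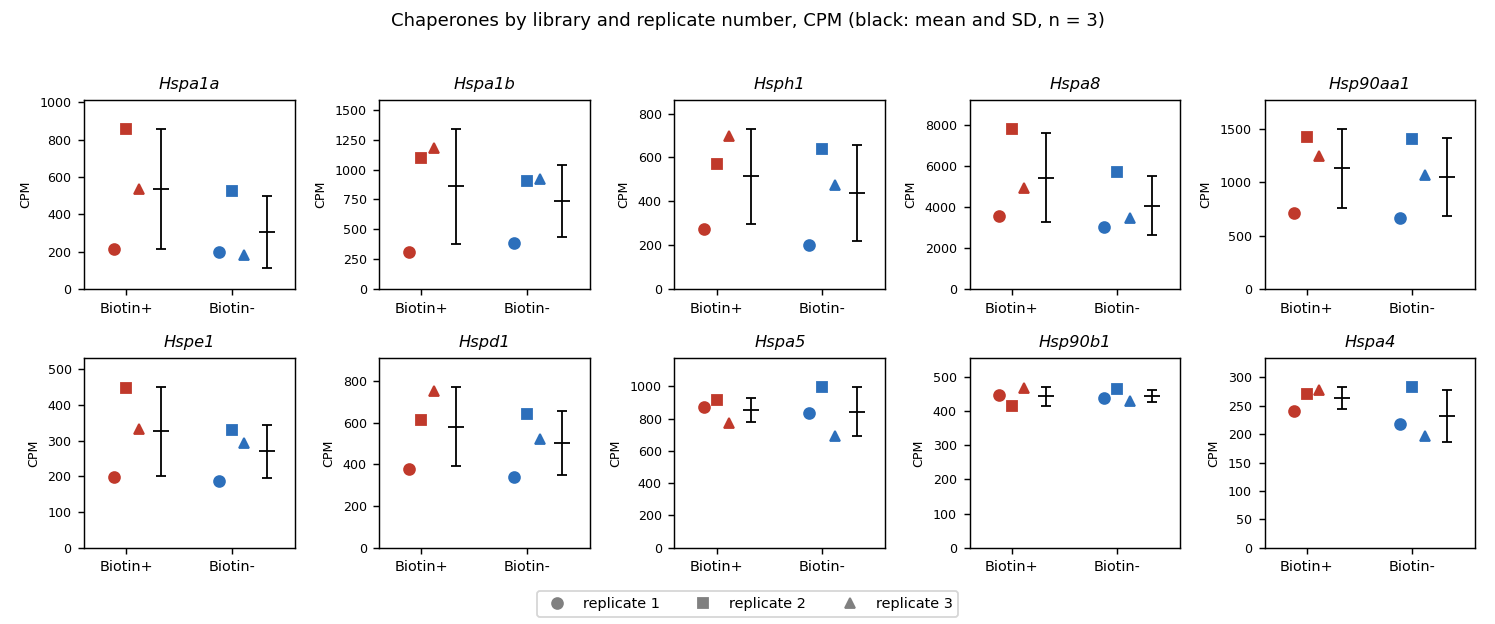
CPM (vertical axes, from 0) in each library for 10 chaperone genes; red is Biotin+, blue Biotin-, marker shape gives the replicate number, and black bars are the mean and SD of 3 libraries. In Hspa1b, Hsph1, Hspa8, Hsp90aa1, Hspe1 and Hspd1 the circle of replicate 1 is the lowest mark in both groups, while the ER genes Hspa5 and Hsp90b1 stay between 414 and 996 CPM without that order.

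This pattern depended on scaling and on single libraries. With library size alone as the scaling, 1 chaperone gene (Hspa1b) passed beside 0.531% of all genes. With DESeq2's size factors 5 passed beside 2.17%, and with upper quartile scaling 6 beside 2.05%. Scaling to CD8 T identity genes gave 8 beside 7.81% of all genes. Biotin+ replicate 2 had the smallest scaling factor (0.815 in a range up to 1.13), and without it 11 chaperone genes passed beside 11.8% of all genes. Without Biotin- replicate 2 the count was 14 beside 22.9% of all genes, a share near that of the chaperone genes. Without Biotin+ replicate 1, Biotin+ replicate 3 and Biotin- replicate 1 the counts were 3, 4 and 4, beside 2.38%, 1.79% and 2.76% of all genes. Leaving out Biotin- replicate 3 gave 5 beside 3.04%. Shares of counts, which involve no scaling factor, were 1.33%, 1.89% and 1.97% in Biotin+ and 1.39%, 2.10% and 1.75% in Biotin-, so that replicate 1 was lowest in both groups on this scale too. The highest share in Biotin+ was that of replicate 3, not of replicate 2.

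Over all 60 tested chaperone genes, the median log2 span between the highest and lowest number was 0.42, beside 0.47 for all genes, and the median absolute log2 fold change between groups was 0.28, beside 0.36. The wide spans were thus those of a few genes. Among the 27 chaperone genes with a mean of at least 50 CPM, the median span was 0.49 and the median absolute log2 fold change 0.23. The span is a range over the replicate numbers and the fold change a difference between groups, with unlike numbers of libraries in each mean. Their sizes therefore cannot be set against each other. The labels do not say whether a number marks an animal, a pool or a day of preparation, so that these cannot be told apart.

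**Figure D4:**
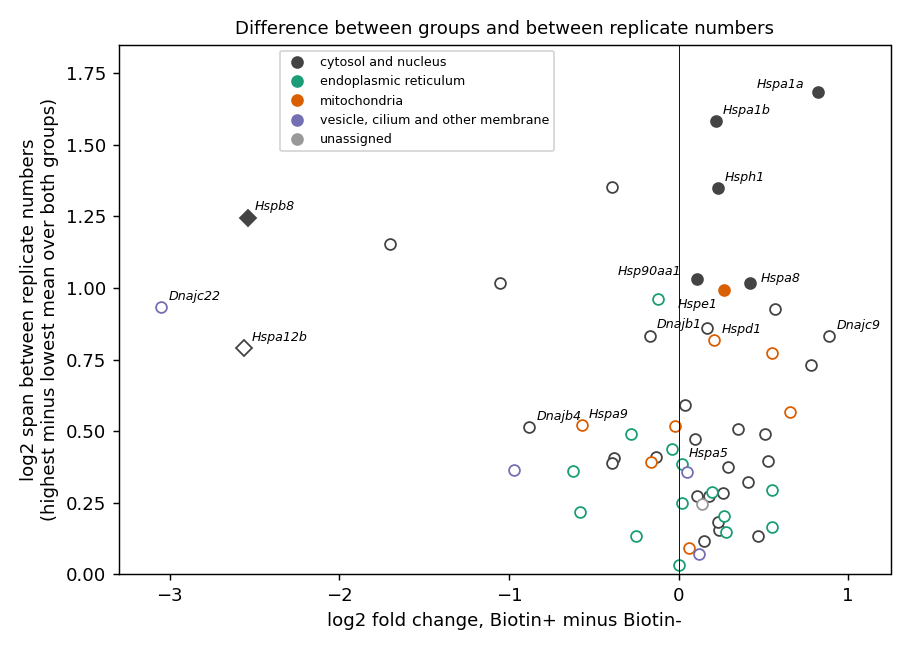
Log2 span between replicate numbers (vertical axis, means over both groups) against the log2 fold change between groups (horizontal axis) for the 60 tested chaperone genes, coloured by compartment; filled marks passed the test of the number and diamonds passed the test between groups. Hspa1b and Hsph1 lie high near the centre line, and Hspa1a lies high to its right at a log2 fold change of 0.82. Hspb8 is both filled and far to the left, and the ER genes Hspa5 and Hsp90b1 lie near a fold change of 0. The spans and fold changes are unlike measures, so the axes cannot be compared in size.

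Promoters are shown for the inducible pair Hspa1a and Hspa1b and the chaperonin gene Hspe1, which varied by number. Hspa1a also passed between groups with the replicate block. The ER gene Hspa5, which did not pass by either test, and Hspb8, which fell and also varied by number, are shown as well. Each run holds the 250 bases before the RefSeq transcription start on GRCm38.p6, read on the gene's own strand from 5′ to 3′. The coordinates are chr17:34972157-34972406 (minus strand) for Hspa1a, chr17:34959239-34959488 (minus) for Hspa1b, chr1:55087898-55088147 (plus) for Hspe1, chr2:34771840-34772089 (plus) for Hspa5 and chr5:116422865-116423114 (minus) for Hspb8. Capitals mark a heat shock element in Hspa1a, Hspa1b and Hspe1 and an ER stress element in Hspa5, and Hspb8 has no capitals.
Hspa1a: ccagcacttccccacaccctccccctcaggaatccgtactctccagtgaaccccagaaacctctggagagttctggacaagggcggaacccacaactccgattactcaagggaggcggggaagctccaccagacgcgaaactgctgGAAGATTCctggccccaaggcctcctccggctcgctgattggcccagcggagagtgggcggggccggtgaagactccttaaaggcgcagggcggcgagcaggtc
Hspa1b: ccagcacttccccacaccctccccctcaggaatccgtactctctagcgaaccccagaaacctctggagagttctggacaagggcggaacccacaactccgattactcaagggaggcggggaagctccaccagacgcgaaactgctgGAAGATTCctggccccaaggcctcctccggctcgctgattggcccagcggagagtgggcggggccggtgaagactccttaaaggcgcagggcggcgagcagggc
Hspe1: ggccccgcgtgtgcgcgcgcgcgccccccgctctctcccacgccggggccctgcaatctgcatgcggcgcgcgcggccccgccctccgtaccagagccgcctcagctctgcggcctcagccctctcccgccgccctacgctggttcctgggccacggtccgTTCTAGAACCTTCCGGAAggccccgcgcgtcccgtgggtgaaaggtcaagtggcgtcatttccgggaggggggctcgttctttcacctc
Hspa5: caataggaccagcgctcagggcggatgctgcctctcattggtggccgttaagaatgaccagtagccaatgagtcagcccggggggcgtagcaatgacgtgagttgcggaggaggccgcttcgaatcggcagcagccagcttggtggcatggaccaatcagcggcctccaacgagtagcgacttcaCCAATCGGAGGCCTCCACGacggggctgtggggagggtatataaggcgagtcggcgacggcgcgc
Hspb8: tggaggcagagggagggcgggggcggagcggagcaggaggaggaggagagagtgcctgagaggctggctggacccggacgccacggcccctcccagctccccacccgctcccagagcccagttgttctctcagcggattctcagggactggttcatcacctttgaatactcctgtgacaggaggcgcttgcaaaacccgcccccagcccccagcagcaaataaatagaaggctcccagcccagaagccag

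The heat shock element is the binding sequence of heat shock factor 1, and the ER stress element is bound by ATF6 and NF-Y. The heat shock element was searched as 3 alternating units (GAANNTTCNNGAA, or TTCNNGAANNTTC, which is its other strand) and as 2 units (GAANNTTC or TTCNNGAA), and the ER stress element as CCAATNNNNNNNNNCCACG or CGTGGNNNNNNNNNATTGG on the other strand. A promoter window ran from 250 bases before to 50 bases after the start, and every match to 3 units also holds matches to 2. Of the 69 genes, 56 had a promoter in the table. The 3-unit element occurred in 4 of the 56 (7.14%: Hspe1, Hspd1, Hsph1 and Dnajb6), beside 0.662% of all 27025 genes and 0.603% of all 32851 promoters. The 2-unit element occurred in 15 (26.8%) beside 17% of all genes and 15.1% of promoters. The ER stress element occurred in 3 (5.36%: Hspa5, Hsp90b1 and Dnajc3) beside 0.137% of genes and 0.119% of promoters.

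In Hspe1, whose promoter is shared head to head with Hspd1, 2 overlapping 3-unit elements start at positions -89 and -84, where -1 is the base before the start. Hsph1 has TTCTGGAAAGTTC at position 36 after its start. In Hspa1a and Hspa1b the 2-unit match GAAGATTC lies at position -104 in both genes. Their 250 bases are identical at 247 positions and differ by C44T, T47C and T249G, with the base of Hspa1a first, that of Hspa1b last, and positions counted from 1 at the 5′ end of the run. The Hspa5 element starts at position -65. Hspb8 has its only 2-unit match, GAAGTTTC, at position 2 after the start, outside the printed run. Of the 4 genes with a 3-unit element, Hspe1 and Hsph1 passed by replicate number, and Hspd1 and Dnajb6 did not. None of the 4 passed between groups.

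Heat shock transcription factors did not pass between the groups. Of 6 genes on that list 4 were tested, and Hsf1, the main regulator of the heat shock response, had 48.1, 53.8 and 42.9 CPM in Biotin+ and 51.2, 49.1 and 59.1 CPM in Biotin- (log2 fold change -0.14 ± 0.19, SE; adjusted p = 0.725). Hsf2 (-0.41 ± 0.29) and the factor-binding protein gene Hsbp1 (-0.28 ± 0.20, both SE) did not pass. Hsf4, best known from the lens, had 6.60 to 11.2 CPM in Biotin+ and 2.74 to 5.08 CPM in Biotin- and passed only with the block (1.07 ± 0.36, SE; adjusted p = 0.0496, against 0.109), a call lost without the pair numbered 1 (0.0810) or 2 (0.305). The cytosolic chaperonin CCT and its feeder prefoldin gave no call among 14 genes, with a median log2 fold change of 0.24 and the smallest p-values at Pfdn4 (0.70 ± 0.30), Pfdn5 (0.53 ± 0.24), Pfdn6 (0.32 ± 0.22) and Cct2 (0.35 ± 0.25, all SE). Cct2 had 389, 627 and 479 CPM in Biotin+ and 356, 494 and 322 CPM in Biotin-, with replicate 2 highest in both groups.

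Some of the abundant genes share sequence with processed pseudogenes, so that their counts carry an uncertainty that the deposited table does not resolve. Besides the Hspa1 pair, at least 10% of 75-base windows also occurred in another gene for Hspb1 (46.4%), Hsp90aa1 (42.8%), Hspa8 (32.8%), Hspd1 (29.6%), Dnajb6 (16.2%), Hspe1 (11.9%) and Dnaja1 (10.4%). Hspb8, Hspa12b, Dnajb4, Dnajc22, Dnajc27, Dnajb11, Hsph1 and Hspa5 shared none, and neither did 42 of the 69 genes in all. Exons of 27 of the 69 overlap another gene, among them Hspd1 and Hspe1, which overlap each other on opposite strands, and Dnajc19 and Dnaja1, which overlap Fxr1 and Smu1 on the opposite strand. Reads of such partners cannot be told apart without strand.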

How the data were processed

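Poly-A RNA of sorted CD8 T cells was sequenced in 3 Biotin+ and 3 Biotin- libraries. The deposited values are raw read counts for each gene symbol, with a column for every library, per the labels. The submitters' processing notes name Trim Galore 0.6.7, STAR 2.7.10a, Picard 1.14, featureCounts 2.0.1 and GRCm39, without their roles. Annotation, strandedness and the handling of multiply mapping reads: not given in the sources used here. Of 40879 genes, 18545 had no count. Totals were 16423106 to 19640693 counts, and without molecular identifiers the reads are not independent molecules.

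Titles gave the groups. Whether libraries came from separate animals is not stated, so p-values describe the spread between these libraries alone, which may be technical. Libraries of a group differed by more than counting noise (chi-square per degree of freedom of 35.6 or more). The test was edgeR 4.0.16 in R 4.3.3 (filterByExpr, trimmed mean of M values (TMM) scaling, robust quasi-likelihood F test, group alone, Benjamini-Hochberg over 13360 genes, threshold 0.05). The common biological coefficient of variation was 0.311. SE is the absolute log2 fold change over the square root of F. The test was checked on simulated counts drawn with the common spread for every gene and no pairing, with 8 false calls among 13360 genes. Deviations from the group means correlated across genes at 0.366, 0.263 and 0.393 in same-numbered libraries and at -0.276 to -0.0721 in others, so the titles' numbers were taken to pair the samples. The block adds the number to the design. Over the 60 chaperone genes alone these were 0.672, 0.645 and 0.296, and -0.631 to 0.150.

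The genes, lists and tests were chosen with earlier results of these data known. Genes named by rule were those that passed, a fixed set of 30 (Hspb11 was not found under that symbol), the 3 smallest p-values per compartment and up to 4 per list. Other members, such as Dnajc9, Hspa12a, Dnajb5, Dnajb14 and Dnajc14, were chosen after their values were seen. Compartments were assigned by hand from general knowledge. GENCODE M21 on GRCm38, another build than the authors', gave exon lengths, 75-base windows and overlaps, and RefSeq promoters on GRCm38.p6 gave the sequences. Alternatives were other scalings and filters, DESeq2 1.42.0, limma 3.58.1 with voom weights, the block and leaving out libraries.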

Additional observations from a re-analysis of the deposited data

How the results depend on the processing

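The call of Hspb8 was stable, while counts of calls moved. Of the recomputed values of single genes, 854 kept their direction and side of the threshold, 73 changed sign without a call on either side (26 of them under scaling to CD8 T identity genes), another 73 gained a call, 7 lost one and 3 turned to a called value of the other sign. Those 3, all under scaling to CD8 T identity genes, were Hspa5 at -0.70, Hsp90ab1 at -0.69 and Dnajc7 at -0.62; that scaling moves every gene down together, by construction. The 7 lost calls, each on leaving out 1 library, were 1 of Hspa12b, 2 of Bag3, 1 of Jun and 3 of Egr2. Depth limits the rare genes, such as Dnajc22 and Hspa12b, most.

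Chaperone genes called higher were 0 in the test without the block (1.53% of all genes) and 1, Dnajc9, without a filter on low counts (1.77%). They were 1, again Dnajc9, with DESeq2 (3.53%) and 5 with the replicate block (5.6%). Alternatives added after the data were seen used the block without the pair numbered 1, 2 or 3. These called 2, 8 and 1 higher, beside 2.95%, 8.55% and 1.69% of all genes. Those called lower were 2 in the test without the block (6.72% of all genes) and 20 with scaling to CD8 T identity genes (27.9%). They were 4 without a filter (6.69%), 5 with DESeq2 (10.4%) and 6 with the replicate block (12%). Added later, the block and identity scaling together gave 34 (53.2%). The block without the pair numbered 1, 2 or 3 gave 4, 8 and 2, beside 9.16%, 14.9% and 8.58% of all genes. Leaving out single libraries gave 1 to 3 lower and 0 higher, beside 1.75% to 7.58% and 0.168% to 1.45% of all genes. Over all genes, 205 higher and 898 lower became 84 higher with library size alone, 27 and 3732 with identity scaling, 396 and 1495 without a filter, 471 and 1389 with DESeq2, 331 higher with voom, 748 and 1599 with the replicate block, and 23 to 200 and 239 to 1044 without single libraries. With 40879 genes in the table, 22334 were tested without a filter.

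By compartment, calls in either direction under identity scaling, no filter, DESeq2 and the replicate block were 9, 4, 4 and 6 for the cytosol and nucleus (2 in the main test; 1 to 3 without single libraries) and 2, 1, 2 and 2 for vesicles and other membranes (0; 0 to 1). The ER gave 7 with identity scaling and 1 with the block, and mitochondria gave 2 with each, against 0 for both.

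Among the lists, partner cochaperones gave 11 calls with identity scaling and 2 each without a filter, with DESeq2 and with the replicate block (1; 0 to 2 without single libraries), and their median of 0.20 became 0.00 with library size alone and -0.53 with identity scaling. CCT and prefoldin gave 5 calls with identity scaling, and their median of 0.24 became 0.01 with library size alone, -0.52 with identity scaling and 0.01 to 0.40 without single libraries. Heat shock factors gave 3 calls with identity scaling and 1 with the replicate block, with medians of -0.43 with library size alone and -0.97 with identity scaling. ER folding genes gave 8 calls with identity scaling, 2 without a filter and 1 each with DESeq2, voom and the replicate block (0 to 1 without single libraries). Their median of 0.12 became 0.10 with DESeq2's size factors and with its test, 0.05 with upper quartile scaling, -0.08 with library size alone, -0.61 with identity scaling, 0.08 without a filter, 0.07 with voom and -0.01 to 0.17 without single libraries. Immediate early genes gave 18 calls and a median of -1.11 with identity scaling, and 2 to 6 calls without single libraries. The chaperone median became -0.62 with identity scaling. Chaperone genes called by replicate number were 7, 1 with library size alone and 3 to 14 without single libraries, where 1.79% to 22.9% of all genes passed. The causes of these moves were not tested.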
